A study of Brachypodium distachyon with 8 samples.

Results

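Small RNA reads that fall in 3' UTRs, the stretch of a transcript after its stop codon, were compared between leaves of Brachypodium distachyon heated in air and leaves of unstressed plants. The comparison uses 3 of the 8 libraries of the series: heat in air at 42 °C for 1 h, heat in air at 42 °C for 3 h, and unstressed plants kept in the growth regime of 22 °C. All plants were Bd21, a diploid inbred line of this model grass, and each condition was 1 library of whole leaves, with no statement of how many plants it pooled. The 5 other libraries, used here for scaling and for lengths and levels outside the comparison, were heat by immersion in water at 42 °C for 1 h and 3 h, cold at 4 °C for 6 h and 24 h, and salt (300 mM NaCl) for 48 h. A locus is 1 transcript identifier, and 18191 of 30815 identifiers, from 13130 of 24118 genes, reached the 40 reads over the 8 libraries needed to enter. The study asked how small RNA populations respond to abiotic stress. The identifiers could not be joined to gene names, because the files do not pair them and 0 of the 24118 genes matched the RefSeq table, so loci are described by identifier, read length and level.

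Plant small RNAs are cut from longer RNA by Dicer-like enzymes, each of which gives products of a set length. Reads of 21 nt include most microRNAs, which guide Argonaute proteins to cut or silence matching transcripts, and reads of 24 nt are mainly the short interfering RNAs that direct DNA methylation. Breakdown of a transcript, in contrast, gives pieces of no set length. The length of the reads at a locus is therefore a description of what kind of RNA can lie there, and the lengths in the files run from 15 to 41 nt.

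The unstressed library stood apart from the 7 stressed libraries in how far its reads were concentrated. Total 3' UTR reads were 4622303 after 1 h and 4027943 after 3 h of heat in air, against 3642238 without stress. The 10 most abundant loci of the series held 68.5% and 56.2% of reads after 1 h and 3 h, against 89.9% in the unstressed library, and 38.9% to 71.3% in the 5 other libraries. Outside the 100 most abundant loci, 1010667 and 1289381 reads remained after 1 h and 3 h of heat, against 196272 without stress. The labels' protocols name more than 1 library kit and tie none to a library, so kit and condition cannot be told apart. In whole leaves, fewer cells of a type and less RNA per cell cannot be told apart either. Scaling used a trimmed mean of M values (TMM), which set the heated libraries at 5.07 and 6.53 times the unstressed one, where the totals alone gave 1.27 and 1.11 times. Every ratio below rests on that choice: scaling by totals would raise each log2 ratio by 2.00 at 1 h and by 2.56 at 3 h. With no replicates, differences are between libraries and intervals cover counting error only.

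Over all loci, the heated libraries had more reads of 24 nt and fewer of 20 nt than the unstressed one. Reads of 24 nt were 10.3% after 1 h (95% exact Clopper-Pearson interval 10.2% to 10.3%) and 16.0% after 3 h (15.9% to 16.0%), against 3.33% without stress (3.31% to 3.35%). Reads of 20 nt were 10.7% and 8.73%, against 40.8%. A single locus, Bradi1g05790.1, held 69.9% of the 20 to 23 nt reads of the unstressed library. Reads of 30 and 31 nt together were 18.2% after 1 h and 7.26% after 3 h, against 3.11%, so that the 1 h library stood above the 3 h library. The 5 other stressed libraries ran from 9.57% to 27.6% at 24 nt, from 4.06% to 9.95% at 20 nt and from 3.52% to 26.2% at 30 and 31 nt. The unstressed library lay outside each of these ranges, and of the heated libraries only that of 1 h did, at 20 nt.

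Without the 100 most abundant loci, the difference at 24 nt was much smaller and one at 21 nt appeared. The 24 nt share was then 38.2% after 1 h (38.1% to 38.3%) and 41.5% after 3 h (41.4% to 41.6%), against 38.3% without stress (38.1% to 38.5%). The intervals of the 1 h and the unstressed library overlap. The 21 nt share was 10.7% (10.7% to 10.8%) and 9.03% (8.98% to 9.08%), against 18.2% (18.0% to 18.3%) in the unstressed library. The 5 other stressed libraries ran from 9.33% to 13.4%, so the 1 h library lay within that range, the 3 h library just below it and the unstressed one above it. Reads of 16 nt were commoner after heat in air, at 5.29% and 6.3% against 3.50%, and so were reads of 17 nt, at 4.22% and 4.47% against 2.54%. The 5 other stressed libraries ran from 2.51% to 5.16% at 16 nt and from 2.40% to 4.35% at 17 nt. Both heated libraries lay above that range at 16 nt, and at 17 nt the 3 h library did.

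**Figure D1:**
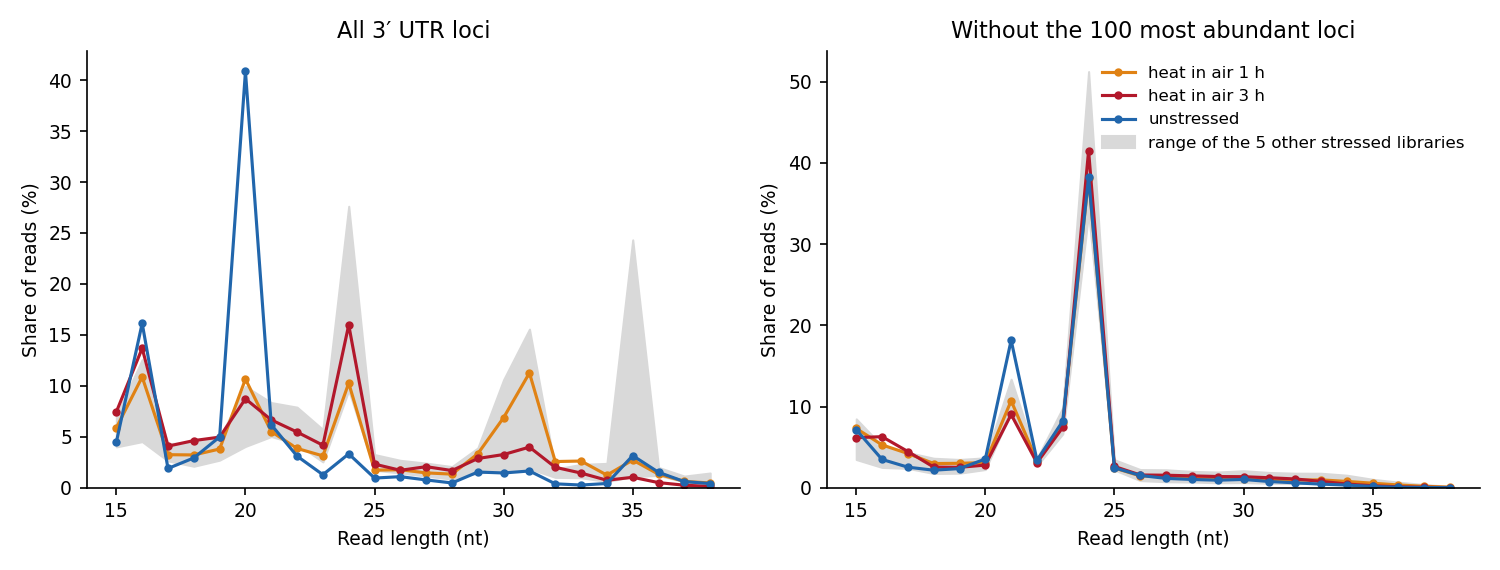
Share of 3' UTR reads (%) at each read length from 15 to 38 nt, over all loci (left) and without the 100 most abundant loci (right). Lines are heat in air 1 h, heat in air 3 h and unstressed, and the grey band is the range of the 5 other stressed libraries; without the abundant loci the unstressed library stands above the rest at 21 nt, with 18.2% of its reads.

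The loci with the most reads after heat differed in the lengths of their reads. Bradi4g27190.1 had 604410 reads at 1 h and 744124 at 3 h, against 954473 without stress, which was 13.1% and 18.5% of the libraries against 26.2%. It was 8.01-fold and 8.38-fold lower under TMM, but 2.00-fold and 1.42-fold lower under totals. It gave reads of many lengths in every library, and its commonest length, 21 nt at 1 h and 15 nt at 3 h, held 14.1% and 11.8% of its reads, against 17.7% at 21 nt without stress. Bradi5g00200.1 had 430890 and 513561 reads, against 62400. No length led it: the commonest held 6.26% (15 nt) and 6.55% (27 nt) after heat and 6.74% (19 nt) without stress. Its ratio was close to 1 under TMM scaling, 1.36 (1.35 to 1.37) at 1 h and 1.26 (1.25 to 1.27) at 3 h, but 5.44 and 7.44 under total scaling.

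Of the other abundant loci, Bradi1g05790.1, Bradi5g10760.1, Bradi2g06470.1 and Bradi1g05760.1 were each led by the same single length in all 3 libraries. Bradi1g05790.1 had 477474 and 236892 reads, against 1602543, with 20 nt at 66.9% and 69.8% of its reads, against 81.4%. Its TMM ratio put it 17.0-fold below the unstressed level at 1 h (17.0 to 17.1) and 44.2-fold below at 3 h (44.0 to 44.4). By totals it was 4.26-fold and 7.48-fold below. Bradi5g10760.1 had 261104 and 172947 reads, against 415682, with 16 nt at 89.2% and 78.3%, against 97.8%. It was lower under both scalings, 8.07-fold and 15.7-fold under TMM and 2.02-fold and 2.66-fold under totals. Bradi2g06470.1, also led by 16 nt, had 120392 and 209486 reads, against 50793. It was lower under TMM, by 2.14-fold and 1.58-fold, and higher under totals, by 1.87-fold and 3.73-fold, so its direction depended on the scaling. Bradi1g05760.1 had 60189 and 31417 reads, against 89062, again led by 16 nt, and was 7.50-fold and 18.5-fold lower under TMM and 1.88-fold and 3.14-fold lower under totals. Bradi4g19720.1 had 31427 and 49468 reads, against 9066, and no length led it: the commonest, 15 nt at 1 h, 17 nt at 3 h and 15 nt without stress, held 9.96% and 9.70%, against 9.53%. It was lower under TMM, by 1.46-fold and 1.20-fold, and higher under totals, by 2.73-fold and 4.93-fold.

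At Bradi3g13900.1 the heated libraries differed in length class. It had 107657 and 138129 reads after 1 h and 3 h, against 17896 without stress. Reads of 31 nt led it at 1 h with 27.9%, while 18 nt led at 3 h with 39.6%, against 29.0% at 18 nt without stress. The class of 25 to 41 nt was 70.5% of its reads at 1 h and 28.8% at 3 h, against 36.3%. Its ratio to the unstressed level was 1.19 (1.17 to 1.21) and 1.18 (1.16 to 1.20) under TMM, but 4.74 and 6.98 under total scaling. Bradi2g13080.1 and Bradi3g27270.1, whose counts are nearly the same and which can share their reads, were led by 31 nt in all 3 libraries.

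A locus was called when the 95% interval of its ratio lay wholly past 2-fold. At 1 h, 513 of 18191 loci were higher (2.82%) and 418 lower (2.30%), and at 3 h 588 were higher (3.23%) and 600 lower (3.3%). At both times 310 loci from 208 genes were higher (1.70%) and 284 loci from 211 genes lower (1.56%). The shared loci were 60.4% of the 1 h list and 52.7% of the 3 h list of higher loci, and 67.9% and 47.3% of the lists of lower loci. Both times were set against the same unstressed library, so these shares are a description. Identifiers can share reads: joining identifiers that can share 90% or more of their reads left 218 groups of higher and 210 groups of lower loci. Scaled by totals, the lists held 6303 and 19 loci, with 99.7% of called loci higher in place of 52.2%.

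The depth of the unstressed library bounded what could be called. A locus with 0 unstressed reads needed 40 reads at 1 h and 51 reads at 3 h to be counted as higher. A locus with 0 heat reads at a time needed only 3 unstressed reads to be counted as lower at that time. Where reads are few, the rule thus favours lower calls. Of the tested loci 4462 had 0 unstressed reads, and 165 of the 310 higher loci were among them. In the unstressed library 0 reads allow a share of up to 8.24e-05%, which is 3 reads. Between the times, 11 of the 310 higher loci were higher at 3 h than at 1 h and 7 lower, and 5 of the 284 lower loci were higher and 11 lower. Over all tested loci 1.95% were higher and 2.56% lower.

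Most of the higher loci had reads of many lengths, with none of them dominant. In the 5 libraries that the comparison did not use, 263 of the 310 had 100 or more reads, and their commonest length held a median of 10.8% of the reads (quartiles 9.34% and 14.8%). Over all 8896 tested loci with such depth the median was 51.5% (21.8% and 69.0%), and over 231 of the lower loci 55.5% (40.98% and 69.98%). The commonest length held under 20% of the reads at 214 of the 263 higher loci (81.4%) and at 26 of the 231 lower loci (11.3%), against 24.1% of all. Heat in water is among these 5 libraries, and the higher loci were high there too. At the 310 higher loci it gave 46351 reads at 1 h and 79913 at 3 h. Cold gave 25210 and 29950 and salt 26721, so the profile is in part one of heated leaves. Reads at the higher loci covered a median of 23 different lengths, against 17 at the lower loci and 17 over all. Depth was not matched between these lists. Whether the reads at the higher loci are transcript pieces or Dicer-like products was not tested.

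The same 5 libraries were used to class each locus with 20 or more reads there by the length class that took the largest part of its reads, averaged over libraries. Of 308 classed higher loci, 155 were led by 15 to 19 nt (50.3%) and 100 by 25 to 41 nt (32.5%), against 25.8% and 19.2% of all classed loci. Only 34 were led by 24 nt (11.0% against 41.9%) and 19 by 20 to 23 nt (6.17% against 13.1%). Lower loci were led by 20 to 23 nt in 92 of 281 (32.7% against 13.1%), by 24 nt in 92 (32.7% against 41.9%), by 15 to 19 nt in 71 (25.3% against 25.8%) and by 25 to 41 nt in 26 (9.25% against 19.2%). The class of 15 to 19 nt thus held about the same share of lower loci as of all loci. These counts carry no test, and heat in water, where the higher loci were also high, is among the 5 libraries.

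**Figure D2:**
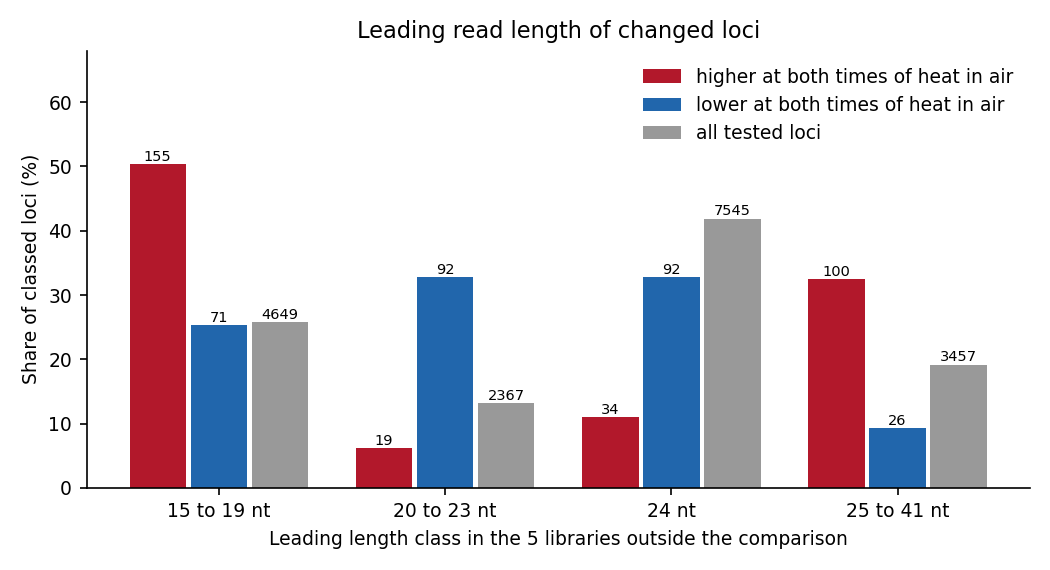
Share of classed loci (%) led by each read length class, for loci higher at both times of heat in air, loci lower at both times, and all tested loci; the class comes from the 5 libraries outside the comparison and the numbers above the bars are loci. Short reads of 15 to 19 nt led 155 and long reads of 25 to 41 nt led 100 of the higher loci.

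The higher loci ranked first show the broad profile. Bradi1g66470.1 had 3037 reads after 1 h and 5047 after 3 h of heat in air, against 0 without stress. By the floor of 3 reads it was at least 199.7-fold higher at 1 h and at least 257.5-fold higher at 3 h. It had 1303 and 1994 reads after heat in water, 16 and 34 in cold and 28 under salt, so all 4 heated libraries were far above the rest. Its reads covered 24 lengths at each time, and the commonest, 15 nt, held 10.2% and 10.8%. By class, 15 to 19 nt reads were 43.7% and 41.8%, 20 to 23 nt reads 20.4% and 19.6%, 24 nt reads 3.79% and 3.61%, and 25 to 41 nt reads 32.1% and 35.1%. It also ranked first when the reads of 15 to 19 nt or of 20 to 23 nt were counted alone.

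Bradi5g02040.1 had 2728 reads at 1 h and 3601 at 3 h, against 0 without stress. By the floor it was 179-fold higher at 1 h (from 146) and 184-fold higher at 3 h (from 149). Its reads covered 25 and 26 lengths, and 15 nt was the commonest with 9.49% and 8.58%. Bradi1g66590.2 ranked first when only reads of 25 to 41 nt were counted, with 1008 and 1622 such reads, against 0. By the floor it was 66.3-fold (from 53.8) and 82.8-fold (from 67.2) higher in such reads. It had 2829 and 4512 reads of all lengths, against 6, and can share them with the other transcript of the same gene. At Bradi1g66470.1 reads of 20 nt numbered 189 and 311 at 1 h and 3 h, reads of 21 nt 170 and 233, and reads of 22 nt 142 and 243, so no peak stood at 21 nt.

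**Figure D3:**
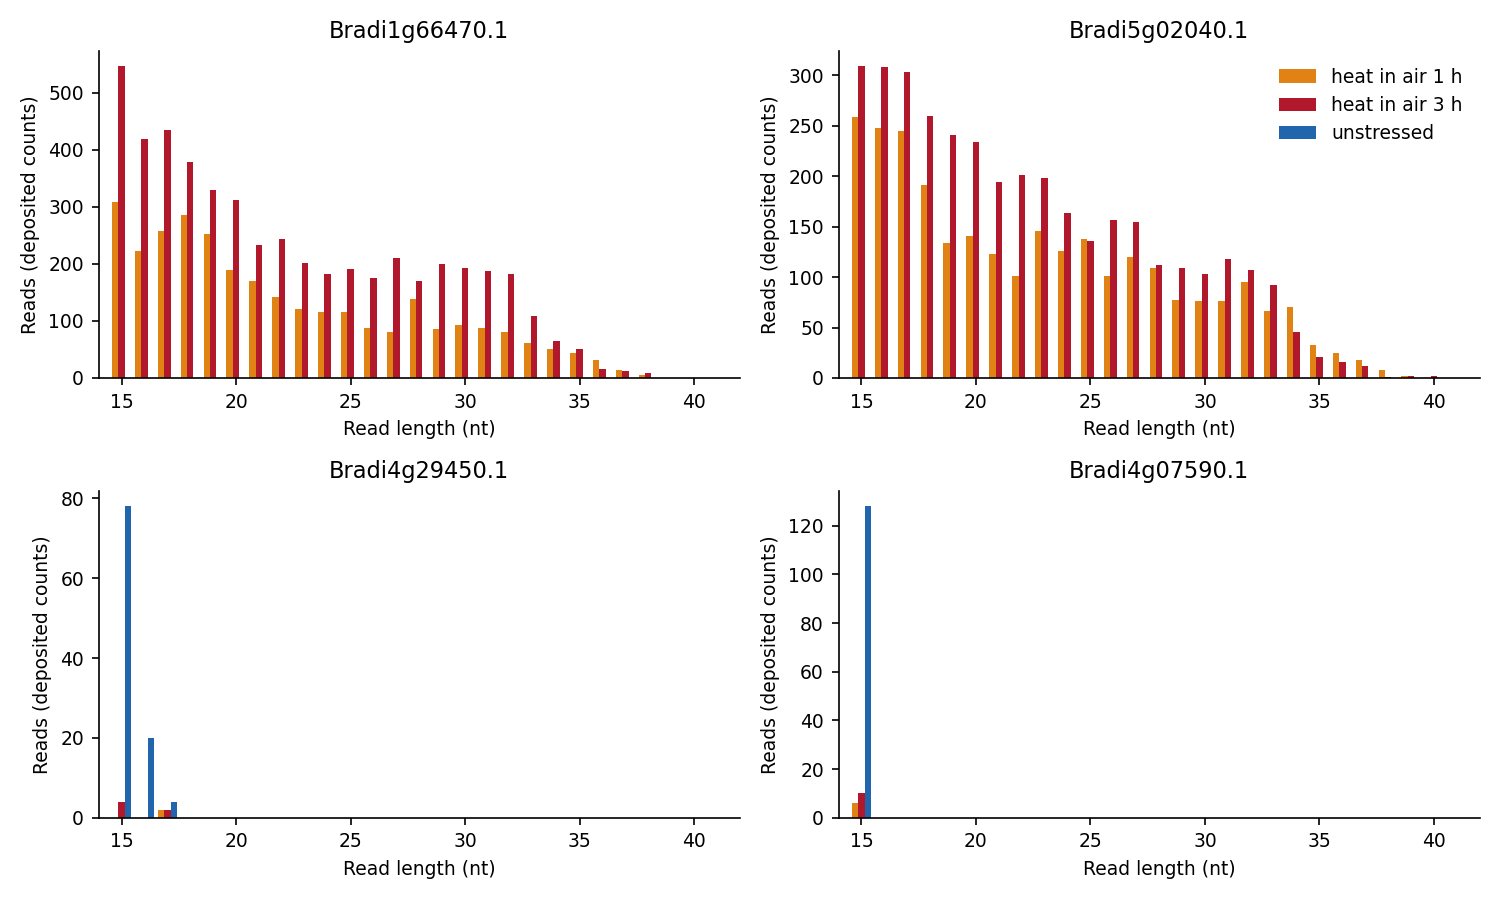
Deposited read counts by read length (nt) at the 2 higher and the 2 lower loci ranked first, for heat in air 1 h, heat in air 3 h and unstressed. The higher loci, Bradi1g66470.1 and Bradi5g02040.1, had reads of nearly every length after heat and 0 reads without stress; the lower loci had 102 and 128 unstressed reads, all of 15 to 19 nt.

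The lower loci ranked first had reads of few lengths. Bradi4g29450.1 had 2 and 6 reads after heat in air, against 102 without stress, with 0 reads in the 1 h and 104 in the 3 h library of heat in water, 144 in the 6 h and 108 in the 24 h cold library, and 4 under salt. Of the unstressed reads 76.5% were 15 nt long. At 1 h the locus was lower by 259-fold (69.8 to 2164), and at 3 h by 111-fold (49.3 to 309.7). Bradi4g07590.1 had 6 and 10 reads, against 128, and every one of these was 15 nt long. It was 108-fold lower (48.4 to 300.2) and 83.6-fold lower (44.0 to 179). All counts of both loci are even numbers in the files, as at 949 of the 18191 tested loci, so each of their reads may have been counted more than once and the intervals may be too narrow. Of the 284 lower loci 19 were of this kind, and of the 310 higher loci 9.

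Counting the reads of 1 length class at a time gave directions that differed by class under TMM scaling and did not under totals, where higher loci outnumbered lower ones in each class. With reads of 15 to 19 nt alone, 162 of 7543 loci were higher at both times (2.15%) and 134 lower (1.78%). With reads of 25 to 41 nt alone, 117 of 5358 were higher (2.18%) and 68 lower (1.27%). With reads of 20 to 23 nt the balance was the other way, 80 of 7934 higher (1.01%) and 301 lower (3.79%), and with 24 nt reads 62 of 8295 were higher (0.747%) and 117 lower (1.41%). Loci with 40 or more reads of the class over the 8 libraries were counted, with the same scaling as for all lengths. The rule favours lower calls where a class has few reads, so these balances do not measure direction alone. With TMM over the reads of 20 to 23 nt alone, 129 loci were higher and 162 lower, and by totals 1137 and 35.

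Reads of single lengths were then counted, with the TMM scaling of all lengths, on which the balance of higher and lower loci depends. That balance depends on depth too, since few reads favour lower calls. At 15 nt, 47 of 1269 loci were higher (3.70%) and 74 lower (5.83%), and at 18 nt 33 of 580 were higher (5.69%) and 15 lower (2.59%). At 19 nt, 27 of 606 were higher (4.46%) and 13 lower (2.15%), and at 20 nt 25 of 779 were higher (3.21%) and 41 lower (5.26%). Of 992 loci at 22 nt, 23 were higher (2.32%) and 54 lower (5.44%). Lengths from 16 to 19 nt thus had more higher than lower loci, and lengths from 20 to 26 nt more lower than higher loci. At 25 nt, 19 of 748 were higher (2.54%) and 32 lower (4.28%), at 26 nt 18 of 319 were higher (5.64%) and 22 lower (6.90%), and at 27 nt 18 of 315 were higher (5.71%) and 13 lower (4.13%).

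Of the single lengths with 300 or more tested loci, 21 nt gave the most one-sided count. The rule favours lower calls where reads are few. Over the loci tested at 21 nt the median was 2.37 and 1.99 scaled reads after heat, against 4 without stress. At 21 nt, 30 of 3537 loci were higher (0.848%) and 300 lower (8.48%), while at 23 nt 28 of 3499 were higher (0.800%) and 81 lower (2.31%). At 16 nt it was the reverse, 65 of 1108 higher (5.87%) and 27 lower (2.44%), and likewise at 17 nt, 55 of 944 (5.83%) and 20 (2.12%). The 21 nt count depended on the scaling: with TMM over the 21 nt reads alone 85 loci were higher and 122 lower, and under total scaling 305 were higher and 33 lower. It also depended on the unstressed library. With the cold and salt libraries in its place, and the interval beyond 2-fold against each of the 3, 65 loci were higher (1.84%) and 2 lower (0.0565%) at 21 nt. By class, 191 loci were then higher (2.53%) and 0 lower (0%) at 15 to 19 nt, and 94 higher (1.18%) and 10 lower (0.126%) at 20 to 23 nt. At 24 nt 35 were higher (0.422%) and 8 lower (0.0964%), and at 25 to 41 nt 102 were higher (1.90%) and 14 lower (0.261%). More loci were then higher than lower in each of the 4 classes.

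**Figure D4:**
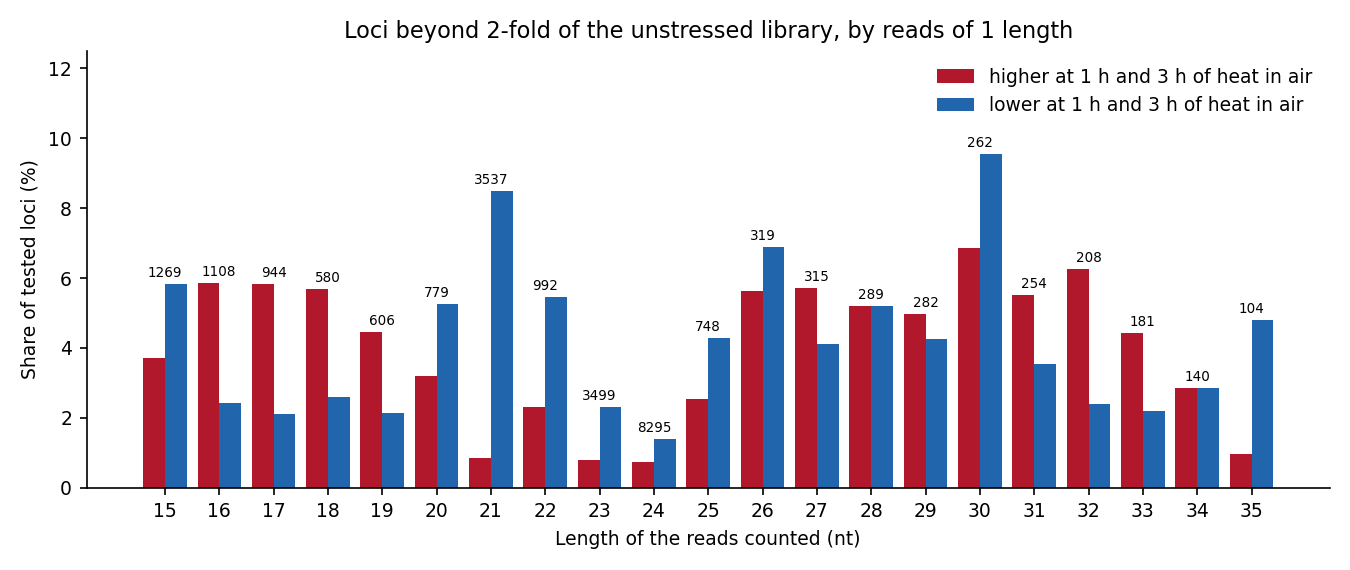
Share of tested loci (%) whose reads of 1 length were higher or lower than in the unstressed library at 1 h and 3 h of heat in air, for lengths with 100 or more tested loci, whose number stands above the bars. At 21 nt, 300 of 3537 loci were lower and 30 higher under TMM scaling, against 33 lower and 305 higher under total scaling.

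The levels of 21 nt reads at those 300 loci are given as a description, since the loci were chosen for them. Their median was 2.37 and 1.68 scaled reads (reads divided by the TMM ratio) at 1 h and at 3 h of heat in air, against 25 without stress. In the 5 other stressed libraries, which the choice did not use, it was 2.17 to 4.84, where that over all 3537 loci tested at 21 nt was 1.86 to 2.53. Over all 3537 loci tested at 21 nt the median was 2.37 and 1.99, against 4 in the unstressed library.

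Within loci deep enough in all 3 libraries, the median 24 nt share was higher and the median 21 nt share lower after heat. At 357 loci with 100 or more reads in each of the 3 libraries, the median 24 nt share was 44.3% at 1 h and 45.2% at 3 h, against 31.5% without stress. The share was higher at both times at 199 of the 357 loci and lower at both at 89. The median 21 nt share was 6.18% and 6.44%, against 8.15%, and lower at both times at 187 loci and higher at 98. Shares do not depend on the scaling between libraries, but the choice of the loci bears on them. The median tested locus had 3 unstressed reads, and 2402 of the 18191 had 20 or more. The filter of 100 reads thus favours loci high without stress, which can favour the read lengths in excess there. The 5 other stressed libraries had a median 24 nt share of 32.0% to 52.6% and a median 21 nt share of 5.51% to 7.12%, so the heated libraries lay within that range at both lengths and the unstressed library outside it.

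The commonest length was the same in all 3 libraries at 242 of the 357 loci (67.8%). At 47 loci both heated libraries shared a commonest length that the unstressed library did not have. In 17 of these it was 24 nt after heat and 21 nt without stress, and in 3 the reverse. The choice of the 357 loci, which favours loci high without stress, bears on these counts as well. Bradi3g27760.1, the lower locus ranked first for reads of 20 to 23 nt, had too few reads to be among the 357. It had 2 and 4 such reads after heat, against 67 without stress, 170-fold lower (45.2 to 1431) and 109-fold lower (40.8 to 413). Of all its reads, 40.0% of 15 and 80.0% of 30 were 24 nt long after heat, against 0 of 70 without stress, where 95.7% were 21 nt long. The choice of this locus by reads of 20 to 23 nt favours such a difference.

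The loci ranked first for 24 nt reads also differed in their 24 nt share, which their choice by 24 nt reads favours. Bradi5g18170.1 had 850 and 1256 reads of 24 nt after 1 h and 3 h, against 6, and was 27.9-fold (12.8 to 76.4) and 32.0-fold (14.7 to 87.5) higher. It also had 969 after 6 h of cold. The 24 nt reads were 82.2% and 86.1% of its reads, against 13.0% without stress, where it had 46 reads in all. Bradi3g32150.1 had 11 and 4 reads of 24 nt, against 111, and was 51.2-fold (27.5 to 105) and 181-fold (68.8 to 677) lower. Of its reads of all lengths, 66 and 71 against 116, 24 nt reads were 16.7% and 5.63%, against 95.7%.

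For reads of 25 to 41 nt, the lower locus ranked first was Bradi5g10090.2. It had 12 and 4 such reads after heat in air, against 42 without stress, and was 17.7-fold (9.17 to 37.0) and 68.6-fold (24.9 to 263) lower. It had 69 such reads after 6 h of cold and 4 to 14 in the other 4 stressed libraries. Its reads of all lengths covered 19 and 12 lengths, against 19.

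The libraries outside the comparison show where else the listed loci were high. The 310 higher loci had a median of 25.3 and 30.4 scaled reads at 1 h and at 3 h of heat in air, against 0 without stress, values that the choice of the loci fixed. Their median was also high in heat by water, at 25.8 and 19.7, but 4.02 and 4.92 in cold and 9.31 under salt. Over all tested loci the median ran from 3.58 to 4.96 in the 7 stressed libraries and was 3 in the unstressed one.

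The 284 lower loci had a median of 10.5 and 10.1 scaled reads at 1 h and at 3 h of heat in air, against 72.5 without stress, values that the choice of the loci fixed too. In the 5 other stressed libraries it was 12.3 to 15.1, close to that in heat. The unstressed library was the highest of the 8 at 260 of these 284 loci (91.5%), against 13.4% of all tested loci. The choice of the loci favours this too.

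**Figure D5:**
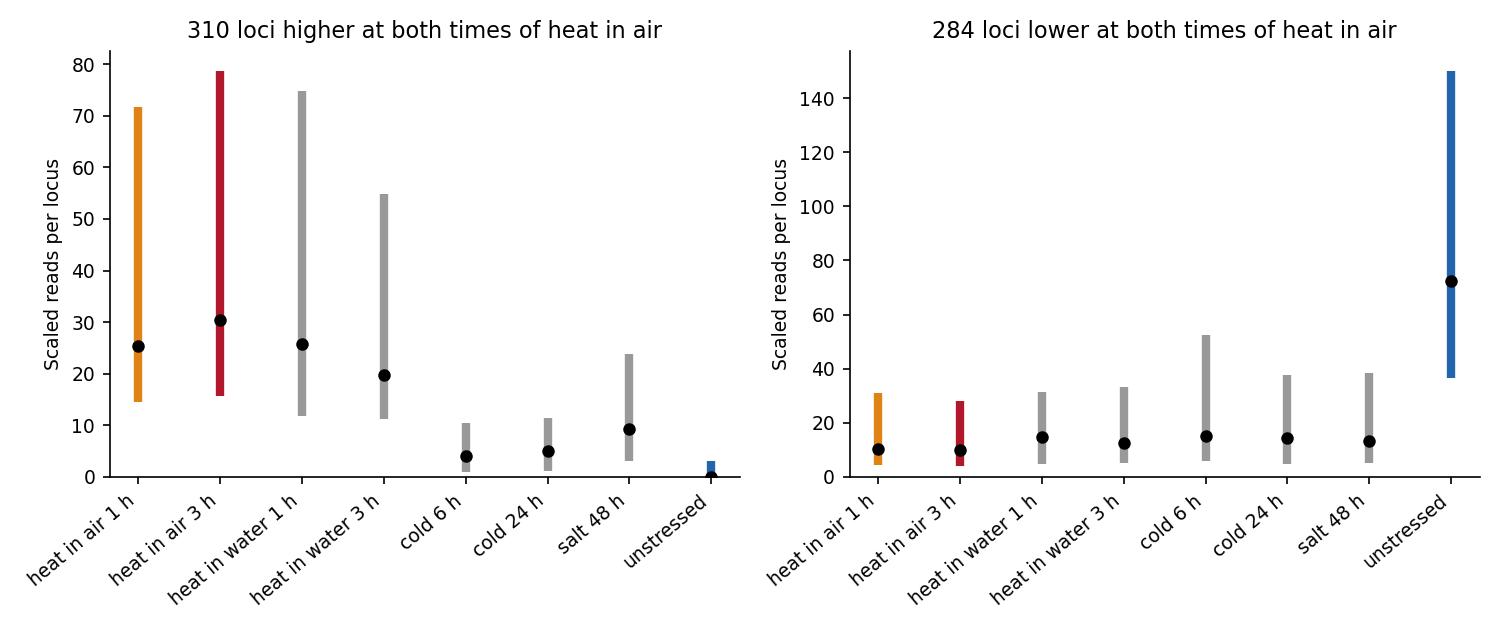
Scaled reads per locus (reads divided by the TMM ratio to the unstressed library) in each of the 8 libraries, for the 310 loci higher (left) and the 284 loci lower (right) at both times of heat in air; points are medians and bars run between the quartiles over loci, which is not replicate error. The higher loci were also high in both libraries of heat in water, and the lower loci, chosen for high unstressed reads, had medians of 12.3 to 15.1 in the 5 libraries outside the comparison.

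Ratios to single stressed libraries were also taken. Against 6 h of cold, 217 of the 310 higher loci were beyond 2-fold at both times of heat in air (70.0%), where 4.06% of all tested loci were. Against 24 h of cold they were 209 (67.4% against 3.51%) and against salt 140 (45.2% against 1.81%). Against heat in water for 1 h they were 17 (5.48% against 0.555%) and for 3 h 51 (16.5% against 0.704%). In the other direction 1, 3, 5, 4 and 9 of the higher loci were lower, in the same order of libraries. Of the 284 lower loci, 35 were lower than after 6 h of cold (12.3% against 1.44%) and 4 higher, and 30 were lower than after 24 h of cold (10.6% against 1.56%) and 10 higher. Against salt 22 were lower (7.75% against 1.73%) and 12 higher. Below heat in water for 1 h there were 22 (7.75% against 0.825%), with 6 above, and for 3 h 18 (6.34% against 1.26%), with 0 above. The loci were chosen for high or low reads in the same heated libraries, which raises these shares. Held to all 3 cold and salt libraries together, 130 higher loci (41.9%) and 8 lower loci (2.82%) kept their side, where 1.06% and 0.0770% of all tested loci were higher and lower.

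The higher list held 2.49% and 4.23% of reads at 1 h and at 3 h of heat in air, against 0.0448% without stress. The lower list held 34.9% and 34.8%, against 88.1%, since it includes Bradi1g05790.1, Bradi4g27190.1 and Bradi5g10760.1. Both lists were chosen on these same libraries, so the differences are a description. In the 5 other stressed libraries the higher list held 0.603% to 2.39% of reads and the lower list 33.1% to 54.2%. By the number in the identifier, which names the chromosome, 84 of the 208 genes with a higher locus lay on chromosome 1 (40.4%), against 29.6% of the 13130 tested genes. Of the 211 genes with a lower locus 61 did (28.9%).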

How the data were processed

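Small RNA libraries were made from leaves and sequenced on the Illumina Genome Analyzer II, per the labels' protocols. The authors deposited whole-number counts, named raw in the file headers, per 3' UTR transcript identifier and read length. The header cells are shifted, so length was read from the second and counts from the fourth column. The tools named, per the submitters' processing notes and without role or order, are Bowtie 0.12.7, bedtools 2.10.0 and CASAVA. Build, annotation, strand and treatment of reads with several places: not given in the sources used here. In each library 51.4% to 67.8% of counts were even. Totals cover 3' UTR reads only and are not the sequencing depth.

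Members, lists and tests were chosen with earlier results of these data known. TMM factors (edgeR 4.0.16, R 4.3.3; 30% of log ratios and 5% of levels trimmed; unstressed library as reference) were computed on the 18191 loci with 40 or more reads. Ratios of scaled reads have exact Clopper-Pearson 95% intervals of the conditional binomial share (scipy 1.17.1, numpy 2.4.6, pandas 2.3.3, Python 3.11.15). A fold against 0 reads uses a floor of 3 reads in that library. Amplified reads are not independent molecules, so intervals and floors cover counting error only. With 1 library per condition there is no test and no p-value. DESeq2 1.42.0 size factors were an alternative. Calling was tested on simulated data. Named loci were the 10 most abundant after heat, the 2 per direction whose interval, at the weaker time, ended farthest from 1, the first per direction in each length class, and the locus with the most reads of each class; those with a distinct result are printed. Single lengths, the spread of lengths and identifier chromosomes were added after values had been seen. Lists by gene description were not run, since no identifier joined to a name. Figures were drawn with matplotlib 3.10.9.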

Additional observations from a re-analysis of the deposited data

Results flagged for a closer look

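At 4 loci the heated libraries lay on opposite sides of the unstressed one, higher at 1 h and lower at 3 h of heat in air; none lay the other way. The difference was not tested, since each time is 1 library. Bradi2g13080.1 had 542069 reads at 1 h and 89182 at 3 h, against 34833 without stress, which was 3.07-fold higher (3.04 to 3.10) and 2.55-fold lower (2.52 to 2.58). Bradi3g27270.1, which can share these reads, had 537743 and 87872, against 34136. For both, the direction at 3 h turned under total scaling. Bradi2g01940.1 had 2577 and 72 reads, against 135, 3.76-fold higher (3.17 to 4.51) and 12.2-fold lower (9.14 to 16.5), or 2.07-fold lower at 3 h under total scaling, which is no longer wholly beyond 2-fold. Reads of 15 nt were 96.7% of its reads at 1 h, and 24 nt led at 3 h with 66.7%. Bradi2g01920.1 had 144 and 0 reads, against 4, all even counts, and was 7.10-fold higher at 1 h (2.71 to 26.4). At 3 h under TMM it was 8.71-fold lower by the floor of 3 reads (95% interval from 4.31). Under total scaling its interval at 3 h, 0 to 1.37 times the unstressed level, includes no change. These loci are named because they are the whole of this count, after their values were seen.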

How the results depend on the processing

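No paired analysis was possible because each condition is 1 library, and no library could be left out in turn. Depth limits the unstressed side, where loci with 0 reads and under 40 heat reads could not be called higher. Halved counts, single identifiers for shared reads, loci without even counts alone, single lengths and the cold and salt reference were chosen after seeing the data. Loci at both times numbered 310 higher and 284 lower. They were 6303 and 19 under total scaling, 129 and 92 beyond 4-fold, 100 higher with 20 to 24 nt reads, 201 higher with 1 identifier per gene, 161 higher with reads thinned by a coin toss each, 149 higher with counts divided by 2, and 193 and 14 with the cold and salt libraries as reference. At 1 h (513 and 418) the counts were 7218 and 38 under total scaling, 179 and 128 beyond 4-fold, and 221, 338, 265 and 245 higher with 20 to 24 nt reads, 1 identifier per gene, thinned and halved counts. At 3 h (588 and 600) they were 11378 and 36, 194 and 189, and 215, 386, 289 and 271 higher, with 371 lower for halved counts. Called loci that were higher were 52.2% at both times, 28.1% with 20 to 24 nt reads, 40.8% thinned and 41.2% halved.

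By class, total scaling gave 1703 higher and 20 lower at 15 to 19 nt, 1137 and 35 at 20 to 23 nt, 2474 and 14 at 24 nt, and 1039 and 2 at 25 to 41 nt. At 21 nt it gave 305 and 33. Beyond 4-fold the classes gave 85 and 53, 35 and 101, 15 and 48, and 61 and 19. TMM within the class gave 129 and 162 at 20 to 23 nt, 42 lower at 25 to 41 nt, and 85 and 122 at 21 nt. With 200 or more reads of the class 53 were lower at 15 to 19 nt and 183 at 20 to 23 nt, and with 1 identifier per gene 45 at 25 to 41 nt. With cold and salt as reference 0, 10, 8 and 14 were lower in the 4 classes, 35 higher at 24 nt, and 65 higher and 2 lower at 21 nt. The class from all 8 libraries left 10 higher loci led by 20 to 23 nt.

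The 21 nt share at 1 h, 3 h and without stress was 9.50%, 8.62% and 12.9% without the 10 most abundant loci, 10.7%, 9.03% and 18.2% without 100, and 4.90%, 6.16% and 5.91% with 1 identifier per gene. The 24 nt share was 29.2%, 33.3% and 24.0%, 38.2%, 41.5% and 38.3%, and 8.75%, 14.3% and 2.81%. Under total scaling the log2 ratio turned for Bradi2g13080.1 (1.21) and Bradi3g27270.1 (1.22) at 3 h, Bradi2g06470.1 (0.90 and 1.90) and Bradi4g19720.1 (1.45 and 2.30). The cause was not tested beyond the construction of each alternative. Of 48 locus ratios, all stayed on their side under DESeq2 size factors. Under total scaling 33 did, and 9 kept their direction and crossed 2-fold. The counts and shares not printed in this section, 68 values over all alternatives, stayed within 1.5 times.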
